A study of Mus musculus with 12 samples.

Results

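The genes described here encode the proteins of the cytosolic ribosome. They were taken by symbol (Rpl or Rps followed by a digit, together with Rplp0, Rplp1, Rplp2 and Rpsa), leaving out the Rps6k kinases, Rps19bp1 and symbols marked -ps, and a gene also needed a mean of at least 10 counts per library. Of 24562 genes in the count table, 89 matched by symbol and 79 reached that mean, 47 of the large subunit and 32 of the small one. All 79 passed the filter on low counts that left 12641 genes for testing. Just inside the limit lay Rpl28 with a mean of 11.6 counts and Rpl9 with 12.7, and just outside it Rpl21 with 9.67 and Rpl39l with 6.83. Others below it were Rpl12 at 6, Rps28 at 5.50, Rpl11 at 4, Rpl3l at 2.5 and Rpl32l at 2.25, while Rpl10l and Rps23rg1 had 0 counts in every library.

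A ribosome holds 1 copy of most of these proteins, so cells make them in matched amounts. Their mRNAs typically begin with a cytosine and an unbroken run of pyrimidines, the terminal oligopyrimidine (TOP) tract, through which mTOR and the RNA-binding protein LARP1 set how much of each mRNA is translated. Macrophages that meet a bacterial product change their rates of protein synthesis, and much of that control acts on translation, which mRNA counts do not measure.

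The libraries came from macrophages of the peritoneal cavity of female mice on chow or on a high fat diet (HFD), and the series' title places them in a study of hypercholesterolemia and the pentose phosphate pathway. The cells had received lipopolysaccharide (LPS), a cell wall component of Gram-negative bacteria, for 0 h or 24 h, which gave 4 groups of 3 libraries, 2 on chow (0 h and 24 h) and 2 on HFD (0 h and 24 h). Strain, genotype, age, length of the diet and LPS dose were not given in the sources used here. Nothing states that replicates are separate animals, and the p-values below therefore cover the spread between libraries alone, part of which may be technical. Since each 24 h library carries LPS, the agent and the elapsed time cannot be told apart.

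Library totals ranged from 2360244 counts (HFD 0 h replicate 3) to 20688308 (HFD 24 h replicate 3), and the next lowest was 9135057. HFD 0 h replicate 3 stood apart in several ways: 6 ribosomal protein genes (Rpl13, Rpl19, Rpl27, Rpl36a, Rps12 and Rps13) had 0 counts in it and none did elsewhere, and it had the steepest slope of log2 level on transcript GC content, 0.34 per 10 percentage points, against a lowest slope of -0.28 in chow 24 h replicate 3. A lane tag in the labels marked all 3 chow 24 h libraries and HFD 24 h replicate 1 and no other library. Lane and LPS therefore cannot be told apart on chow. A fit with the lane tag as a covariate takes the tag's effect from HFD 24 h replicate 1 against replicates 2 and 3. Its LPS results on chow rest on that 1 library and cannot separate lane from LPS. On HFD such a fit in effect leaves that library out. Macrophage genes were abundant, with mean levels of 7237 CPM for Lyz2 (counts relative to the library total, scaled by the trimmed mean of M-values), 2900 for Cd68, 941 for Csf1r and 532 for Adgre1. Summed B cell markers lay between 4.83 and 24.6 CPM over the 12 libraries, neutrophil markers between 28.4 and 85.1, and mesothelial and stromal markers between 450 and 2069. Summed T and NK cell markers lay between 2.31 and 5.27 CPM. Of all these markers, S100a8 rose with LPS in both diets, Upk3b fell in both, Cxcr2 fell on chow, Krt8 fell on HFD and Lck rose on HFD. Among the macrophage genes Lyz2 fell in both diets (log2 fold changes of -1.14 ± 0.14 on chow and -1.03 ± 0.14 on HFD) and Adgre1, Fcgr1 and Timd4 rose in both, and the part of these cells in the results below was not tested.

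Pyrimidine runs of the kind found in TOP tracts were common near the annotated starts of the ribosomal protein genes. Windows from 250 bases before to 50 bases after an annotated start were found in RefSeq (GRCm38.p6) for 60 of the 79 genes. A run of at least 8 pyrimidines that begins with C and lies within 50 bases of the start was present in 49 of the 60 (81.7%), against 32.2% of 17492 protein-coding genes searched in the same way. The following 30-base windows carry the run, in capitals, for 4 genes that were lower after LPS in at least 1 diet and for the stalk protein gene Rplp2. They lie at chr3:130730330-130730359 on the minus strand (Rpl34), chr10:80292447-80292476 on the plus strand (Rps15), chr9:44407684-44407713 on the plus strand (Rps25), chr17:28328572-28328601 on the plus strand (Rpl10a) and chr7:141447637-141447666 on the plus strand (Rplp2). Counted from the annotated start of its own window, the run begins 17 bases before that start in Rpl34, 22 before in Rps25 and 4 before in Rplp2. It begins 25 bases after it in Rps15 and 17 after in Rpl10a. Rpl34 and Rpl10a each have another annotated start, at the gene limits 130730398 and 28328471. The window of that start held a different run of 8 bases in Rpl34, beginning 13 bases before it, and no such run in Rpl10a. In none of the 5 does the printed run begin at an annotated start, so these runs are not shown to open the mRNA.
Rpl34: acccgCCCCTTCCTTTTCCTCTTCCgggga
Rps15: cagcccgtaCTTCCTTTTCCgagtaaccgc
Rps25: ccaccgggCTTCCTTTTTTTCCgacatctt
Rpl10a: aagcgctctgCCTTCTTTCCggtttccgcg
Rplp2: gcgtcagcgtCTTCCTTTCgccgccggacg

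In the windows of Rpl24, which rose with LPS in both diets, and Rps4x, which fell in both, no such run was found. Their 15 bases on each side of the annotated start are shown for contrast, with the first transcribed base as a capital, at chr16:55966260-55966289 on the plus strand and chrX:102189377-102189406 on the minus strand.
Rpl24: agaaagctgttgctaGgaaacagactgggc
Rps4x: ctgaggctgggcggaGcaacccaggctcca

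The absence says only that no such run begins within 50 bases of the annotated start, and the annotated start need not be the one used. Among other motifs, searched on both strands of the whole window, the ETS-type sequence CCGGAAG was found in 24 of the 60 genes (40%, against 12.9% of all), the YY1-type AAGATGG in 10 (16.7% against 7.18%) and the TATA sequence TATAAA in 6 (10% against 14.8%). The ETS match overlapped the pyrimidine tract in 2 genes. These matches describe the sequence and show no binding.

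Counted levels of the ribosomal protein genes spread over a wide range, although their products enter the ribosome in matched amounts. Per kilobase of transcript, Rpl41, which encodes the smallest ribosomal protein, had the highest mean level at 931 CPM per kb, followed by Rpl38 at 494, a gene known from the tail-short mouse mutant, and Rpl32 at 377. The lowest were Rpl28 at 0.885 CPM per kb, Rpl9 at 1.5 and Rpsa, the laminin-receptor protein of the small subunit, at 1.53. The highest level was 1050 times the lowest. The 10 genes with the most counts held 52.6% of the counts of all 79, 21 genes had a mean of at least 1000 counts and 19 had fewer than 50.

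Many of these genes have processed pseudogenes, and reads that fit several places in a genome are often not counted. To describe this, each transcript was divided into all its 50-base windows, and those that also occur in an annotated transcript of another gene were counted (GENCODE M21, mm10). The 77 ribosomal protein genes with a matched transcript had a median of 51.8% of windows shared, with a range of 0% to 93.3%, whereas the median of 12285 other tested genes was 0%. Over 50% was shared in 40 of the 77, compared with 3.39% of the other genes, and 76 of them shared a window with at least 1 pseudogene. Rps3 shared 2.96% and had 141, and Rpl4 shared 16.4% and had 346, whereas Rpl9 shared 93.3% and Rpl24 81.7%, at 1.5 and 3.68 CPM per kb.

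**Figure D1:**
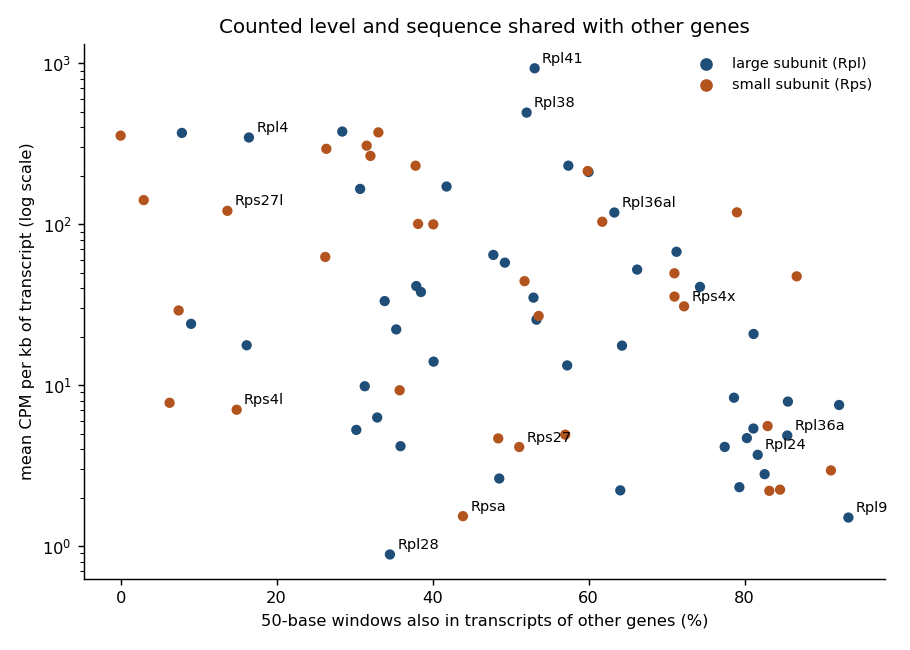
Mean level of 77 ribosomal protein genes over the 12 libraries (CPM per kb of transcript, log scale) against the percentage of their 50-base windows that also occur in annotated transcripts of other genes, with large-subunit genes in blue and small-subunit genes in orange. Some genes that share most of their sequence, such as Rpl9, Rpl24 and Rpl36a, lie low, yet Rpl41 and Rpl38 share over 50% and lie highest, and Rpl28 and Rpsa share less than 50% and are among the 3 lowest.

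Across these 77 genes the shared percentage and the level had a Spearman correlation of -0.41, a description over genes of the same libraries. The median level was 41.3 CPM per kb in the 37 genes with under 50% shared and 19.2 in the 40 with over 50%. Sharing did not order the genes closely: Rpl28 shared 34.5% and Rpsa 43.9%, and both were among the 3 lowest. How reads with several places in the genome were treated was not given in the sources used here, and its part in these levels was not tested. Levels of different ribosomal protein genes therefore describe what was counted and need not rank their mRNAs. A comparison of 1 gene between groups uses the same windows on both sides. Whether reads from other genes in shared windows differed between groups was not tested.

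Together the 79 genes held a small and slightly varying share of each library's counts. The share was 0.636%, 0.625% and 0.601% in the chow 0 h libraries and 0.535%, 0.563% and 0.573% in the chow 24 h libraries, in order of replicate. It was 0.583%, 0.630% and 0.473% at HFD 0 h and 0.605%, 0.512% and 0.419% at HFD 24 h. On chow the 24 h libraries all lay below the 0 h ones, whereas the HFD groups overlapped each other and both chow groups. The means were 0.621% ± 0.018 at chow 0 h, 0.557% ± 0.019 at chow 24 h, 0.562% ± 0.080 at HFD 0 h and 0.512% ± 0.093 at HFD 24 h (SD, n = 3 each).

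**Figure D2:**
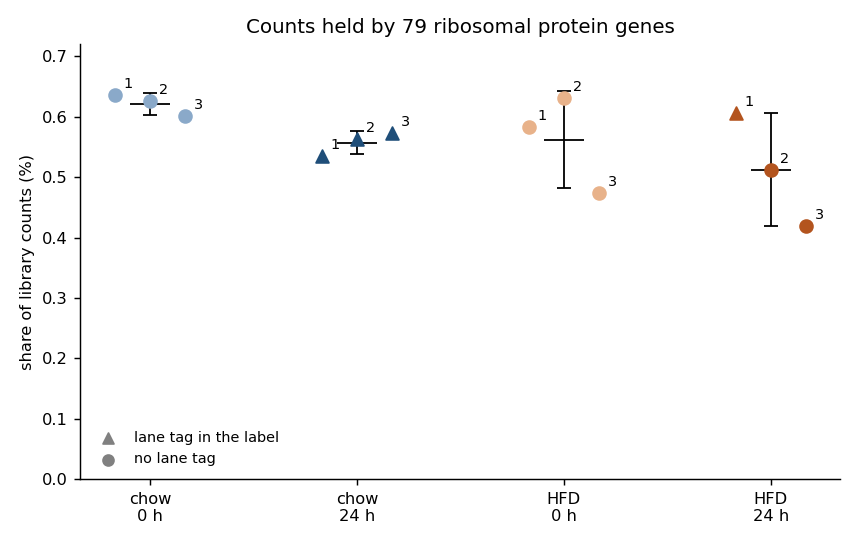
Percentage of each library's counts held by the 79 ribosomal protein genes, by group. Points are single libraries with their replicate number, triangles carry the lane tag, and the bar and whiskers give the mean and SD. The 3 chow 24 h libraries lie below the 3 chow 0 h libraries, and the lowest value, 0.419%, is HFD 24 h replicate 3.

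An exact two-sided permutation test over libraries gave p = 0.1 for LPS on chow, the smallest p that 3 against 3 allows, 0.6 for LPS on HFD, 0.3 for diet at 0 h and 0.6 for diet at 24 h. Adjusted over the 4 tests by Benjamini-Hochberg, these exact permutation values were 0.4, 0.6, 0.6 and 0.6. In HFD 24 h the tagged replicate 1 had the highest share and the untagged replicate 3 the lowest. In bulk RNA, a lower share can come from fewer cells that express these genes or from less of their RNA per cell. It can also come from more RNA of other genes, and these cannot be told apart.

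With LPS on chow, 9 of the 79 ribosomal protein genes changed: Rpl24, Rpl29 and Rps4l rose, and Rps4x, Rps14, Rpl17, Rpl7, Rpl10a and Rps25 fell. These 9 are 11.4%, while 26.6% of all 12641 genes tested changed (edgeR's quasi-likelihood test, Benjamini-Hochberg adjusted p under 0.05, 13.7% higher and 12.9% lower). The median log2 fold change (24 h over 0 h) was -0.13 over the 79 genes and 0 over all genes, 49 of the 79 estimates were negative, and 57 lay within 0.5 of 0. At an unadjusted p under 0.05 there were 15 of the 79, against 36.2% of all genes. Groups did not overlap in 23 genes that were lower at 24 h (29.1% of the 79, against 22.9% of all genes) and in 5 that were higher (6.33%, against 22.5% of all genes). Large-subunit genes had a median of -0.13 and small-subunit genes of -0.12.

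With LPS on HFD, 7 of the 79 changed: 1 gene, Rpl24, rose, and 6 fell, among them Rps15, Rpl7, Rps14, Rps4x and Rpl34. That is 8.86%, while 24.6% of all genes changed (12.7% higher, 12% lower). The median log2 fold change was -0.22, against 0.00 over all genes, 57 of the 79 estimates were negative, and 55 lay within 0.5 of 0. At an unadjusted p under 0.05 there were 14 of the 79, against 35.1% of all genes. Groups did not overlap in 11 genes that were lower (13.9% of the 79, against 17.2% of all genes) and in 2 that were higher (2.53%, against 18.2%). The large and small subunits both had a median of -0.22. This share lay below that of all genes in either diet. With the library length slope as a covariate, however, it was 22.8% on both diets, against 21.5% of all genes on chow and 21% on HFD. A fit with the lane tag cannot settle this on chow, where the tag's effect rests on HFD 24 h replicate 1 alone. The median SE of the 79 genes was 0.30 on chow and 0.31 on HFD, above the 0.21 of all genes in both.

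**Figure D3:**
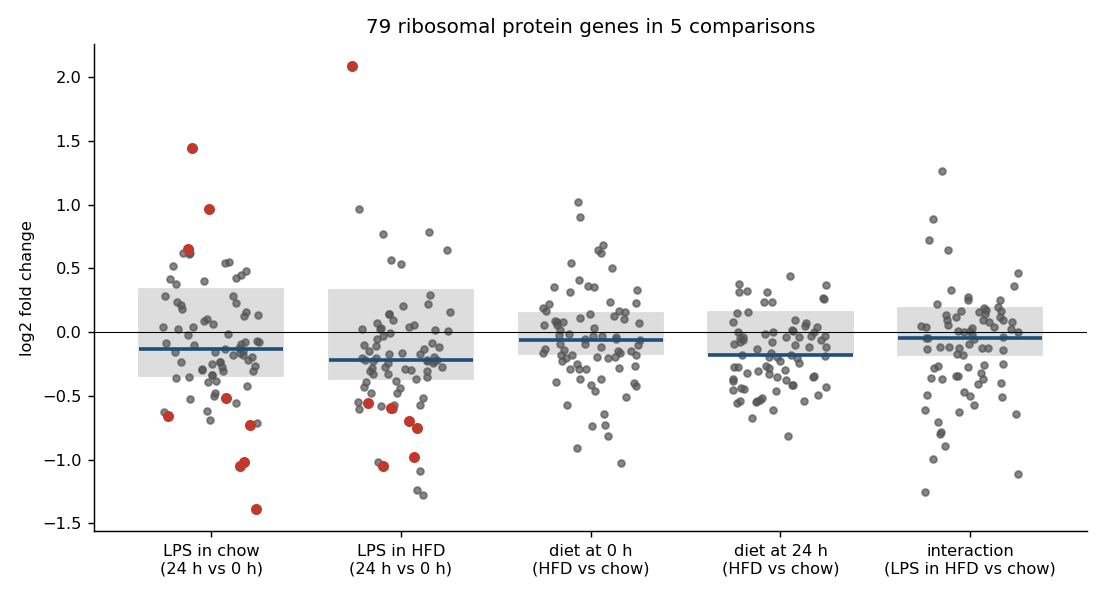
Log2 fold changes of the 79 ribosomal protein genes in the 5 comparisons. Points are genes, red where the adjusted p was under 0.05, the blue line is their median and the grey box spans the middle 50% of all 12641 genes tested. With LPS the genes center at -0.13 on chow and -0.22 on HFD with 9 and 7 red points, and the comparisons of diet have no red point.

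Rpl24, Rps14, Rpl7 and Rps4x changed in both diets and in the same direction, out of 12 genes that changed in at least 1. Rpl24, a late-joining protein that bridges the subunits and is mutated in the belly spot and tail mouse, had the largest rise. Its level was 0.871, 1.38 and 2.08 CPM at chow 0 h and 4.25, 4.04 and 3.54 at chow 24 h. On HFD it was 1.14, 0.556 and 0.899 CPM at 0 h and 5.14, 3.19 and 2.86 at 24 h. Every 24 h library lay above every 0 h library, and the log2 fold change was 1.45 ± 0.39 (SE) on chow (adjusted p = 0.0101, 2.73-fold) and 2.09 ± 0.46 on HFD (adjusted p = 0.00247, 4.25-fold).

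These are small counts, 5 to 65 per library apart from 2 in HFD 0 h replicate 3. Only 115 of the windows of Rpl24 were its own, and its exons (chromosome 16, 55966275 to 55971437) overlap those of the transcript Gm28037 on the same strand over 484 bases, so the 2 cannot be told apart there. The rise on HFD passed in all 26 alternative analyses (adjusted p from 0.000299 to 0.0226), and the rise on chow ended without chow 0 h replicate 1 and with the lane tag or the length slope as a covariate (adjusted p from 0.00235 to 0.586 over the alternatives).

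Rps14, a small-subunit protein whose loss of 1 copy causes the anemia of the human 5q deletion, fell in both diets. On chow it went from 103, 84.6 and 72.1 CPM to 41.5, 51.8 and 32.1, and on HFD from 86.5, 72.5 and 65.6 to 54.8, 35.6 and 19.2. The groups did not overlap, and the log2 fold changes were -1.05 ± 0.29 on chow (adjusted p = 0.0134) and -1.05 ± 0.29 on HFD (adjusted p = 0.0154). Leaving out chow 0 h replicate 1 or chow 24 h replicate 3 ended the fall on chow, and the fall on HFD passed in 25 of 26 alternatives, all but the analysis with no filter on low counts (adjusted p = 0.0605).

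Rps4x, the X-linked form of a small-subunit protein (chromosome X, 102184941 to 102189391), fell from 41.4, 37.4 and 31.7 CPM to 19.0, 27.1 and 20.6 on chow. On HFD it went from 36.4, 43.5 and 30.1 to 23.6, 27.3 and 23.1 CPM. Again no 24 h library reached a 0 h library of the same diet. Its log2 fold changes were -0.73 ± 0.17 on chow (adjusted p = 0.00427) and -0.59 ± 0.18 on HFD (adjusted p = 0.0197). The chow fall passed in all alternatives but the lane tag (adjusted p = 0.235), and the HFD fall ended with the lane tag and without HFD 0 h replicate 1 or 2 or HFD 24 h replicate 1 or 3.

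Rpl7, a large-subunit protein (chromosome 1, 16101295 to 16104433), went from 38.3, 33.1 and 24.9 CPM to 20.2, 17.3 and 23.2 on chow and from 30.5, 45.5 and 49.9 to 20.2, 27.8 and 25.3 on HFD. Here too the groups were apart, with the closest pair of libraries on chow, 24.9 and 23.2. The log2 fold changes were -0.66 ± 0.20 (adjusted p = 0.0238) and -0.75 ± 0.21 (adjusted p = 0.0124). Both ended with the lane tag or the length slope as a covariate, the chow fall also without chow replicate 1 or 2 of either time, and the HFD fall without HFD 0 h replicate 2 or HFD 24 h replicate 1.

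**Figure D4:**
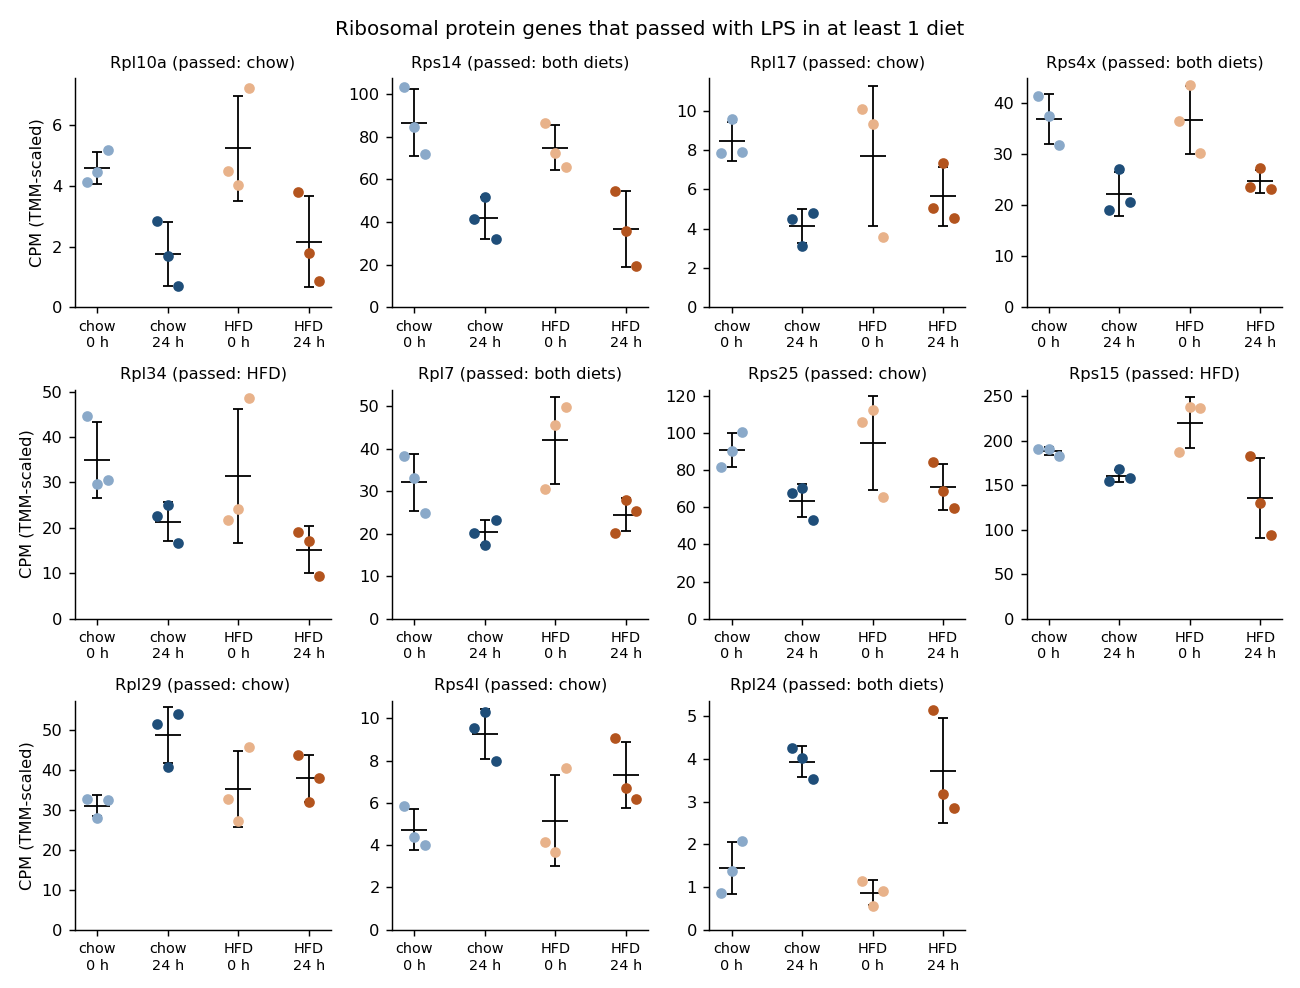
Levels (CPM, linear scale from 0) of 11 of the 12 ribosomal protein genes that passed with LPS in at least 1 diet, in the 12 libraries. Points are libraries, bars and whiskers are the mean and SD of a group, and panels run from the lowest to the highest fold change on chow. Rpl24 rises from at most 2.08 CPM at 0 h to at least 2.86 CPM at 24 h, while Rps14 and Rps4x fall without overlap in both diets.

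Rpl29 and Rps4l passed on chow and not on HFD in the main analysis. Rpl29, a large-subunit protein that joins late (chromosome 9, 106428889 to 106431568), was 32.9, 28.03 and 32.4 CPM at chow 0 h and 51.7, 40.7 and 54.0 at chow 24 h, a log2 fold change of 0.65 ± 0.18 (adjusted p = 0.0117). At HFD 0 h it was 32.8, 27.4 and 45.8 CPM and at HFD 24 h 43.8, 32.1 and 37.9, overlapping, with a log2 fold change of 0.14 ± 0.19 (adjusted p = 0.634). The chow groups were apart and the HFD groups were not, but the difference between the diets, -0.51 ± 0.26 on the log2 scale, did not pass (adjusted p = 1, unadjusted 0.0666, the smallest of the 79 interactions). The chow rise ended without chow 0 h replicate 2 and with the lane tag.

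Rps4l, an autosomal relative of Rps4x that RefSeq lists as a non-coding record (chromosome 6, 148354656 to 148355596), was 5.86, 4.38 and 3.99 CPM at chow 0 h and 9.55, 10.3 and 7.99 at chow 24 h. Its log2 fold change was 0.96 ± 0.27 on chow (adjusted p = 0.0137) and 0.64 ± 0.30 on HFD (adjusted p = 0.133), where the groups overlapped. In contrast to Rps4x, which shared 72.2% of its windows with other genes, Rps4l shared 14.9%. The chow rise was lost when chow 0 h replicate 2 or 3 or chow 24 h replicate 2 was left out, and with the lane tag or the length slope. On HFD Rps4l passed as higher with the GC slope, with replicate block and GC slope together, and without HFD 0 h replicate 3.

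Rpl17, Rpl10a and Rps25 fell on chow and did not pass on HFD in the main analysis. Rpl17, which lines the exit tunnel for the growing peptide, went from 7.84, 9.56 and 7.89 CPM to 4.48, 3.14 and 4.78, with a log2 fold change of -1.02 ± 0.30 (adjusted p = 0.0187). On HFD its estimate was -0.55 ± 0.31 (adjusted p = 0.214), with HFD 0 h replicate 3 at 3.59 CPM and the other two at 10.1 and 9.34. The chow groups were apart, and the call was lost when replicate 2 of chow 0 h or of chow 24 h was left out and with the lane tag. On HFD Rpl17 passed as lower without HFD 0 h replicate 3, and with replicate block and GC slope together.

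Rpl10a, the protein of the mobile stalk beside the tRNA exit site (chromosome 17, 28328471 to 28331033), went from 4.12, 4.46 and 5.15 CPM to 2.83, 1.70 and 0.7201 on chow. The fall of 1.39 ± 0.50 on the log2 scale was the largest among the 79 on chow (adjusted p = 0.0474), and on HFD the estimate was -1.24 ± 0.51 (adjusted p = 0.0902) with groups that were also apart. Rps25, needed for initiation on some viral internal entry sites (chromosome 9, 44407714 to 44410406), went from 82.0, 90.6 and 100.6 CPM to 67.5, 70.2 and 53.4 on chow, a log2 fold change of -0.52 ± 0.19 (adjusted p = 0.049). Its exons overlap those of Trappc4 over 462 bases and of Ccdc84 over 206 on the opposite strand, and the use of strand in counting was not given in the sources used here. Both calls stood close to the threshold and each passed in only 4 of the 12 analyses that left out 1 library: the Rpl10a fall held without chow 24 h replicate 1, HFD 0 h replicate 3 or HFD 24 h replicate 1 or 3, and the Rps25 fall without HFD 0 h replicate 2 or 3 or HFD 24 h replicate 1 or 3. On HFD Rpl10a passed as lower in limma-voom, with the lane tag and without HFD 24 h replicate 1. Rps25 passed there as lower with the lane tag or the length slope, and without HFD 0 h replicate 3 or HFD 24 h replicate 1.

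Rps15 and Rpl34 passed on HFD and not on chow in the main analysis. Rps15, a protein of the small subunit's head near the decoding site (chromosome 10, 80292431 to 80294114), was 187, 238 and 236 CPM at HFD 0 h and 183, 130 and 93.7 at HFD 24 h. The groups lay close, at 187 against 183, without overlap, and the log2 fold change was -0.70 ± 0.18 (adjusted p = 0.00863). On chow it was 191, 191 and 183 CPM against 155, 168 and 158, apart as well, with a log2 fold change of -0.23 ± 0.18 (adjusted p = 0.396). The HFD fall passed in 25 of 26 alternatives and ended without HFD 24 h replicate 3 (adjusted p = 0.0501). On chow Rps15 passed as lower only with the lane tag.

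Rpl34 (chromosome 3, 130726827 to 130730398), a large-subunit protein, went from 21.7, 24.3 and 48.5 CPM to 19.1, 17.2 and 9.33 on HFD, a log2 fold change of -0.98 ± 0.31 (adjusted p = 0.0316), and on chow the estimate was -0.71 ± 0.30 (adjusted p = 0.0947). The highest value, 48.5 CPM, came from HFD 0 h replicate 3, and the fall ended without that library or HFD 24 h replicate 2 or 3. It also ended with no filter on low counts and with the length slope, and with the GC slope (log2 fold change -0.52, adjusted p = 0.111) or the GC slope and replicate block together (-0.40, adjusted p = 0.159). On chow Rpl34 passed as lower with only the groups compared, with replicate block and GC slope together, and without HFD 0 h replicate 3. None of the 12 genes had an interaction past the threshold, so a difference between the diets in their LPS response was not shown.

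The acidic stalk of the large subunit, built on Rplp0 with Rplp1 and Rplp2, recruits the elongation factors. None of the 3 passed with LPS in the main analysis, but each did in some alternatives. Rplp1 and Rplp2 passed as lower in both diets with the lane tag, and on HFD without HFD 24 h replicate 1. With the length slope Rplp1 passed as lower in both diets. On chow Rplp2 passed as lower with only the groups compared, and with replicate block and GC slope together. On HFD Rplp0 passed as lower without HFD 0 h replicate 1. Rplp2 was 201, 209 and 211 CPM at chow 0 h and 165, 179 and 148 at chow 24 h, groups that were apart, with a log2 fold change of -0.34 ± 0.28 (adjusted p = 0.427). On HFD it was 197, 112 and 124 CPM at 0 h and 197, 89.2 and 83.8 at 24 h, where replicate 1 lay well above the others at both times. Rplp1 had estimates of -0.34 ± 0.28 on chow and -0.38 ± 0.28 on HFD, and Rplp0 of -0.08 ± 0.18 and -0.33 ± 0.18. Rpsa, at 1.797 to 4.04 CPM in all libraries, had estimates of -0.18 ± 0.33 and -0.01 ± 0.34.

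Several ribosomal proteins have a paralogue, and the paralogues were often counted at unlike levels. Rps27l, which p53 is known to induce, had 121 CPM per kb and Rps27 had 4.12, and the retrocopy Rps27rt had 2.95. Rps27l was 57.3, 58.8 and 66.7 CPM at chow 0 h and 68.5, 72.1 and 139.8 at chow 24 h, so that the groups were apart and replicate 3 lay far above the rest, and its log2 fold change of 0.62 ± 0.37 did not pass (adjusted p = 0.253). On HFD the estimate was 0.79 ± 0.38 (adjusted p = 0.154). Rps27l passed as higher on HFD with the replicate block, and in both diets with replicate block and GC slope together. Rps27 had estimates of 0.13 ± 0.40 and -0.22 ± 0.42.

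Rpl36al, at 118 CPM per kb, stood above Rpl36a at 4.86, which shared 85.5% of its windows, and neither passed with LPS. Rpl22, an RNA-binding protein that represses its paralogue, had a mean of 1522 counts on a non-coding RefSeq record, and Rpl22l1 of 87.3. Their LPS estimates were 0.23 ± 0.24 and -0.47 ± 0.45 on chow and -0.03 ± 0.24 and -1.09 ± 0.47 on HFD (adjusted p = 0.108 for the last). Rpl22l1 was 17.5, 4.56 and 4.94 CPM at HFD 0 h, so 1 library set that mean. It passed as lower on HFD with the replicate block, the lane tag or the length slope, and without HFD 0 h replicate 2 or HFD 24 h replicate 1. With replicate block and GC slope together it passed as lower in both diets. Rpl7l1 had 24.0 CPM per kb, near the 25.5 of Rpl7, and estimates of 0.16 ± 0.13 and 0.04 ± 0.13, while Rpl7 fell in both diets.

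Rpl3, beside the peptidyl transferase center, Rpl10, which joins last, and Rpl39 of the exit tunnel did not pass in any comparison of the main analysis. Their paralogues Rpl3l, Rpl10l and Rpl39l, known from striated muscle and testis, were below the minimum of 10 counts. Rpl3 passed as lower with LPS on chow with replicate block and GC slope together. None of the 3 highest genes by level passed with LPS: log2 fold changes were -0.09 ± 0.26 on chow and -0.10 ± 0.26 on HFD for Rpl41, -0.12 ± 0.38 and 0.07 ± 0.38 for Rpl38, and -0.08 ± 0.22 and -0.22 ± 0.23 for Rpl32. With the length slope as a covariate, Rpl41 and Rpl32 passed as lower in both diets. Among the lowest, Rpl9 had an estimate of -1.28 ± 0.56 on HFD (adjusted p = 0.113) and of -0.03 ± 0.55 on chow, from 12.7 counts per library on average.

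Diet alone moved no ribosomal protein gene past the threshold. At 0 h (HFD over chow) 0 of 79 passed in edgeR's quasi-likelihood test, where 0.087% of all genes did, and 2 had an unadjusted p under 0.05, against 6.15% of all genes. That number was 13 without HFD 0 h replicate 1 (8.5% of all genes) and 2 to 6 without any other single library. It was 4 in DESeq2 and 8 with the replicate block, which for diet matches libraries by replicate order alone. The 2 were Rpl6, with a log2 fold change of 1.02 (adjusted p = 0.467), and Rpl14, with 0.68 ± 0.21 (adjusted p = 0.409). Rpl14 was 53.2, 41.4 and 47.0 CPM at chow 0 h and 47.0, 89.2 and 93.9 at HFD 0 h, and without HFD 0 h replicate 1 it passed, with a log2 fold change of 0.96 ± 0.16 (adjusted p = 0.0402). The median of the 79 genes was -0.06, and the groups did not overlap in 6 genes that were lower on HFD (6.35% of all genes) and 1 that was higher (5.87%).

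At 24 h (HFD over chow) 0 of 79 passed, where 0.00791% of all genes did, and 4 had an unadjusted p under 0.05, against 7.86% of all genes. Rps3, at 0.37 ± 0.17, was 1 of them (adjusted p = 0.628). Their number was 20 without HFD 24 h replicate 1 (10.5% of all genes), 1 without HFD 24 h replicate 2 or 3, 7 without chow 24 h replicate 2 or HFD 0 h replicate 3, 9 in limma-voom and 0 with the lane tag. Negative estimates made up 60 of the 79, with a median of -0.18 against 0.00 for all genes, and the groups did not overlap in 4 genes that were lower (5.99% of all genes) and 2 that were higher (6.28%). With the lane tag as a covariate, which sets HFD 24 h replicate 1 alone against the chow 24 h libraries, the median turned to 0.13, and with single libraries left out it ran from -0.37 to -0.04. DESeq2 and limma-voom also passed 0 of the 79 at either time.

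The interaction, the LPS change on HFD minus that on chow, passed for 0 of the 79 genes and for 0% of all genes, and 0 of the 79 had an unadjusted p under 0.05 against 2.35% of all genes. Without HFD 0 h replicate 1 or HFD 24 h replicate 1 that number was 7 (3.82% and 3.72% of all genes), without any other single library at most 2, and with the lane tag 5. The median was -0.05, and 0.17 with the lane tag as a covariate. Estimates ran from -1.25 for Rpl9 to 1.27 for Rpl37rt, both with about 13 counts per library. DESeq2 and limma-voom also passed 0 of the 79. The median SE was 0.43, the largest of the 5 comparisons.

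Ribosomal proteins such as Fau and Rack1 fall outside the symbol rule because they are made as fusions or carry another name. Neither passed in either diet, and Rack1, at a mean of 429 CPM, had estimates of -0.11 ± 0.14 and -0.19 ± 0.14. Of 21 elongation factors and other mRNAs known to carry a TOP tract, 0 rose and 5 fell on chow, and 0 rose and 4 fell on HFD. Beside these counts and those of the lists that follow stand the shares of all genes, 13.7% higher and 12.9% lower on chow and 12.7% and 12% on HFD. Tpt1, an abundant mRNA with a TOP tract, fell by 1.05 ± 0.22 on chow and by 1.41 ± 0.22 on HFD on the log2 scale (adjusted p = 0.00172 and 0.000145). The initiation factor Eif4b fell by 0.70 ± 0.12 and by 0.53 ± 0.12, and the elongation factor subunit Eef1b2 by 0.58 ± 0.15 and by 0.79 ± 0.15.

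Of 35 ribosome biogenesis genes, 6 rose and 0 fell on chow, and 2 rose and 0 fell on HFD. Eif6, which keeps new large subunits from joining too early, rose by 0.95 ± 0.18 on chow (adjusted p = 0.000559), and the snoRNP protein Nop56 rose by 0.70 ± 0.19 on chow and by 0.84 ± 0.20 on HFD. Of 14 genes of RNA polymerase I and its factors, Znrd1 rose on chow (0.83 ± 0.26) and Ubtf fell in both diets, by 0.75 ± 0.16 and by 0.93 ± 0.16. Of 78 mitochondrial ribosomal protein genes, 15 rose and 0 fell on chow, and 18 rose and 1 fell on HFD, with medians of 0.25 and 0.20. Mrpl39 rose by 1.14 ± 0.15 and by 1.20 ± 0.16 (adjusted p = 2.36e-05 and 2.31e-05).

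Of 21 genes that control translation through mTOR or MYC, 7 rose and 3 fell on chow, and 7 rose and 4 fell on HFD. Larp1, whose product binds the TOP tract, rose by 1.07 ± 0.15 and by 0.98 ± 0.15 (adjusted p = 2.57e-05 and 7.81e-05). Max, the partner of MYC, rose by 0.79 ± 0.14 and by 0.54 ± 0.14, and Mxd1, which competes with MYC for that partner, by 1.54 ± 0.29 and by 1.10 ± 0.30. Inhibitors of mTOR complex 1 moved in both directions: Ddit4 rose by 2.03 ± 0.45 and by 2.43 ± 0.57 and Sesn2 rose on HFD by 0.67 ± 0.21, while Tsc1 fell by 0.64 ± 0.13 and by 0.51 ± 0.13. The cap-binding protein gene Eif4e rose by 0.73 ± 0.17 and by 0.77 ± 0.18, and its inhibitor Eif4ebp1 rose by 0.50 ± 0.12 and by 0.60 ± 0.13. Myc itself fell on HFD by 0.95 ± 0.28 (adjusted p = 0.019), with an estimate of -0.22 ± 0.27 on chow. In these lists too, 0 genes passed for diet at 0 h, diet at 24 h or the interaction.

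The slope of log2 level on transcript length moved with LPS as well. It was taken from the tested genes outside the 79, and whether it is technical or part of the LPS response was not tested. A fit with it as a covariate can therefore also take out changes that came with LPS. The slope was positive in all 6 libraries at 0 h, between 0.0058 and 0.11 per doubling, and negative in 5 of the 6 at 24 h, the exception being HFD 24 h replicate 3 at 0.06. Ribosomal protein transcripts were short, with a median of 780 bases against 2945 for other tested genes, and of like GC content, 50.7% against 50.5%. With the library length slope as a covariate, added after the data were seen, 1 of the 79 genes rose and 17 fell in each diet (22.8%, against 21.5% of all genes on chow and 21% on HFD), and the medians were -0.38 on chow and -0.45 on HFD. With the GC slope as a covariate, 10 changed on chow and 6 on HFD (12.7% and 7.59%, against 31.9% and 25.4% of all genes). The lane tag as a covariate gave 0 higher and 9 lower on chow and 1 higher and 14 lower on HFD (11.4% and 19%, against 11.9% and 23.1% of all genes), with medians of -0.56 and -0.41.

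The number of changed genes also depended on single libraries. On chow it went from 9 to 4 without chow 0 h replicate 1, to 3 without chow 0 h replicate 2 and to 4 without chow 24 h replicate 2. Those are 5.06%, 3.8% and 5.06% of the 79, against 21.2%, 19.7% and 22.1% of all genes. On HFD the number went from 7 to 11 without HFD 0 h replicate 1 or 3, to 14 without HFD 24 h replicate 1 and to 3 without HFD 24 h replicate 3. Those are 13.9%, 13.9%, 17.7% and 3.8% of the 79, against 21.5%, 23.4%, 22.6% and 19.5% of all genes. Rpl24, Rps14 and Rpl7 were the genes that passed on HFD without HFD 24 h replicate 3, and Rpl24, Rps14 and Rps15 among those that passed without HFD 24 h replicate 1, the tagged library.

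Finally, the genes themselves hold other genes. In GENCODE M21, 28 of the 79 contain at least 1 snoRNA gene on the same strand, 55 in all, and 23 have exons that overlap those of another gene. For those 23, among them Rpl24, Rps25 and Rpl10a, reads of the overlap may have been counted for either gene or for neither, depending on the strand setting and the counter, which were not stated.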

How the data were processed

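Per the labels' protocols, the Qiagen RNeasy mini kit and the NuGen Ovation Universal kit had been used. CASAVA 1.8.2 and STAR 2.5.2b with mm10 are named in the submitters' processing notes. Counter, annotation and strand setting were not given in the sources used here. The deposited table holds raw counts for 35745 RefSeq transcripts in 12 libraries. Since isoforms share reads, only the transcript with the highest mean count stood for a gene.

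Genes were filtered with filterByExpr by group, scaled by TMM and fitted in edgeR 4.0.16 (R 4.3.3) by robust glmQLFit, with glmQLFTest for each contrast, in 1 model of 4 group means, with Benjamini-Hochberg adjustment over all genes at 0.05. The SE is the absolute log2 fold change divided by the root of F. A count of 3 is worth 1.27 CPM in the library with the lowest total and 0.145 in that with the highest. Lengths, GC content and shared windows came from the GENCODE M21 transcript paired with the RefSeq identifier.

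The members, the lists and the rule for named genes were chosen with earlier results of these data known. The rule named genes that passed, the stalk genes, Rpsa, paralogue pairs, the 3 highest and 3 lowest per kilobase, and up to 3 per list. Rps3, Rpl4, Rpl6, Rpl14, Rpl37rt, Ddit4, Sesn2, Tsc1, Eif4e, Eif4ebp1 and Myc were named after their values were seen, and a few genes that the rule names are left out of the text. Alternatives used other size factors and filters, DESeq2 1.42.0, limma-voom (limma 3.58.1), only the groups compared, a replicate block, covariates, summed transcripts, and each library left out. All replicates were kept apart, since chi-square tests found differences beyond sampling noise.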

Additional observations from a re-analysis of the deposited data

How the results depend on the processing

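None of the alternatives run turned the direction of a gene that had passed. The numbers of ribosomal protein genes that passed with LPS moved by more than 1.5 times under several. On chow, the 3 higher became 0 with the lane tag, 6 with the replicate block and GC slope together, 1 with the length slope, and the 6 lower became 13 in only the groups compared, 16 with block and GC slope and 17 with the length slope. On HFD, the 1 higher became 2 with the replicate block or the GC slope and 3 with both, and the 6 lower became 3 without a filter, 14 with the lane tag and 17 with the length slope. Of all genes, higher and lower together, the share on chow was 11.9% with the lane tag and 37.9% with block and GC slope. It was 21.5% with the length slope and 32.2% in only the groups compared. On HFD it was 26.9% with the block, 25.4% with the GC slope and 28.7% with both. Without a filter it was 16.7%, with the lane tag 23.1% and with the length slope 21%. Medians became -0.56 (lane tag) and -0.38 (length slope) on chow, -0.41 and -0.45 on HFD, and with the lane tag 0.13 for diet at 24 h and 0.17 for the interaction. The cause was not tested, and the results with the lane tag rest on HFD 24 h replicate 1 for the tag's effect. Among the 37 genes with under 50% of windows shared, fewer by construction, 1 was higher and 2 lower on chow and 0 higher and 4 lower on HFD. The length slope and the 50% split were added after the data were seen.

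The replicate block took the number in the labels for LPS. For diet it took the replicate order within a group, which matches libraries of different numbers with no stated link. Same-numbered libraries had correlations of 0.0293 to 0.346, and 9 of 12 correlated best with their own number, a hint from the data and not the design. With the block, 12 genes passed with LPS on chow and 11 on HFD (15.2% and 13.9% of the 79, against 29.4% and 26.9% of all genes).

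Leaving out 1 library at a time gave 1 to 4 higher and 2 to 9 lower on chow, 1 to 2 higher and 2 to 13 lower on HFD, and 0 to 1 higher at 0 h by diet, with no call in other comparisons of diet. Of all genes, 19.7% to 29.8% changed on chow and 19.5% to 26.1% on HFD in those fits. Medians ran from -0.17 to -0.11 on chow, -0.39 to -0.08 on HFD, -0.17 to -0.01 for diet at 0 h, -0.37 to -0.04 at 24 h and -0.31 to 0.074 for the interaction. The summed share ran from 0.613% to 0.631% at chow 0 h, 0.549% to 0.568% at chow 24 h, 0.528% to 0.607% at HFD 0 h and 0.466% to 0.559% at HFD 24 h. It was 0.667% at chow 0 h and 0.589% at chow 24 h over totals without identifiers that have no symbol, and with transcripts of a gene summed 0.437%, 0.413%, 0.401% and 0.368% in the 4 groups.

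The 2360244 counts of HFD 0 h replicate 3 and means under 50 counts in 19 of the 79 genes limit what could be detected there.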
